A study of Mus musculus with 217 samples.

Results

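The mitochondrial ribosomal protein genes studied here are the rows of the count tables whose symbol is Mrpl or Mrps followed by a number and at most 1 letter, without pseudogenes. There are 77 of them among 53619 genes, 48 Mrpl and 29 Mrps symbols, and they were described in granulosa cells, the somatic cells that surround the oocyte in the follicle, and in single metaphase II oocytes. They are nuclear genes whose proteins are made in the cytosol and imported into mitochondria. There they form the large and the small subunit of the mitochondrial ribosome, which translates the few proteins encoded in mitochondrial DNA, all of them parts of the respiratory chain and ATP synthase. Many members are descended from bacterial ribosomal proteins and others are specific to mitochondria. A growing oocyte accumulates a large stock of mitochondria, and granulosa cells use theirs for energy and for the first step of steroid synthesis. The symbols do not always give the subunit. Mrps18a and Mrps30 have been placed in the large subunit, and Mrps36 is known as a component of the 2-oxoglutarate dehydrogenase complex, so it is kept as a member by its symbol only. With these placements 30 members were large-subunit proteins with a bacterial counterpart, 20 large-subunit proteins specific to mitochondria, 17 and 9 the same kinds of the small subunit, and 1, Mrps36, was left unplaced.

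The libraries came from female mice of mixed C57BL6/129 background that were labelled Tet2 knockout or wild type. Tet2 is an enzyme gene, and its product acts on methylated cytosines of DNA. All mice were primed with the gonadotropin PMSG, and those giving oocytes also received hCG. Resveratrol, a plant polyphenol, was given in drinking water at 30 mg per L, and control mice of the same age drank water with its solvent DMSO. The 18 granulosa pools fell into 6 groups of 3, namely knockout-labelled resveratrol, knockout-labelled control, wild-type resveratrol and wild-type control mice of 10 months (old), and knockout-labelled and wild-type mice of 2 months (young). The labels disagree on the number of cells in a pool. The 171 oocytes fell into 10 groups, knockout and wild type at 2 months, and knockout resveratrol, knockout control, wild-type resveratrol and wild-type control at 6 and at 10 months, with 14 to 20 oocytes each. The 2-month oocytes titled wild type carry a genotype tag of knockout, and they were grouped by their titles. A second table held 28 oocytes of C57BL6 mice, 10 of old resveratrol mice, 6 of old controls, 11 of 6-month controls and 1 left out of all comparisons, since its title says resveratrol and its treatment tag control. The labels name no animals, so a pool or an oocyte may share its mouse with others.

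Granulosa libraries held 470647 to 20537935 counts, and 5 of the 6 young pools held under 1000000. The exception was replicate 2 of the young knockout-labelled pools with 11595710. Oocytes held 3386039 to 8775154 counts and C57BL6 oocytes 3470831 to 11358927. In oocyte group sums Tet2 lay at 0.961 to 1.4 counts per 1000000 (CPM) in knockouts and at 2.36 to 3.19 CPM in wild type, the 2-month wild-type sum included. In granulosa pools it lay at 11.9 to 21.5 CPM in old knockout-labelled controls and 9.72 to 12.8 CPM in old wild-type controls, so the granulosa genotype is called a label throughout. Oocyte marker transcripts took 0.000103 to 0.0250% of granulosa counts and 0.720 to 3.1% of oocyte counts. Granulosa markers took 0.225 to 0.677% of granulosa counts.

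Start-site sequences are shown for 6 members that differed most between the cell types or moved in granulosa cells, 3 that were higher in granulosa cells (Mrpl33, Mrpl52, Mrpl20) and 3 that were higher in oocytes (Mrps36, Mrpl3, Mrps14). Each is the 150 bases before the RefSeq start site (GRCm38.p6), 5′ to 3′ on the strand of the gene, with matches to any of 6 short motifs, on either strand, in capitals.
Mrpl33, chr5:31613801-31613950, plus strand: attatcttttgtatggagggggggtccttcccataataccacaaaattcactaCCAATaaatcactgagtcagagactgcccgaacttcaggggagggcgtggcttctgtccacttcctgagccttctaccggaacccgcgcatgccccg
Mrpl52, chr14:54426759-54426908, plus strand: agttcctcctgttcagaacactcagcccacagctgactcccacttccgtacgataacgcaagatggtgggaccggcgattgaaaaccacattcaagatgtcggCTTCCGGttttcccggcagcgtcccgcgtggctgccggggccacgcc
Mrpl20, chr4:155802728-155802877, plus strand: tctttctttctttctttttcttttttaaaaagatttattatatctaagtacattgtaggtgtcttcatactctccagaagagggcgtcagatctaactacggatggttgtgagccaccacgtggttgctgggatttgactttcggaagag
Mrps36, chr13:100744660-100744809, minus strand: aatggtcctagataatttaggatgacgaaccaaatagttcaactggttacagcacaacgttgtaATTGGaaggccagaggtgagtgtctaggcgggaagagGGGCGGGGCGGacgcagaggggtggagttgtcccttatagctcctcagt
Mrpl3, chr9:105053118-105053267, plus strand: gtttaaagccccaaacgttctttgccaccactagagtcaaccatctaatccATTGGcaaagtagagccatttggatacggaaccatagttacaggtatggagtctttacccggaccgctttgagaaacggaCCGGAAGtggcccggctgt
Mrps14, chr1:160195065-160195214, plus strand: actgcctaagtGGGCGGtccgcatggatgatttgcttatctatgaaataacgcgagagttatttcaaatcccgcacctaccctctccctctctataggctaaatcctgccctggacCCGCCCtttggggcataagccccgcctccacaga
The motifs were CCGGAAG (bound by ETS factors), GCGCA, any base, GCGC (NRF1), AAGATGGC (YY1), GGGCGG (SP and KLF factors), CCAAT and TATAAA. Neither the ETS nor the SP motif is in the Mrpl33 and Mrpl20 windows, Mrpl52 and Mrpl3 each hold 1 ETS match, and Mrps36 and Mrps14 each hold a pair of SP matches, which overlap in Mrps36. Mrpl33, Mrps36 and Mrpl3 also hold a CCAAT match, and Mrpl20 holds none of the 6 motifs. The RefSeq start of Mrpl33 lies inside the GENCODE gene, which begins at base 31596935. Over the whole window in the table, 250 bases before to 50 after the start, 68 members had a sequence. CCGGAAG was in 36.8% of them, against 9.93% of all 27025 symbols and 12.9% of 17492 protein-coding symbols with a promoter. The NRF1 motif was in 19.1% of the members, against 5.19% and 7.17%. AAGATGGC was in 17.6%, against 3.19% and 3.57%. GGGCGG was in 50.0%, against 38.2% and 49.2%, CCAAT in 39.7%, against 41.1% and 42.3%, and TATAAA in 7.35%, against 15.7% and 14.8%. These are matches of letters and say nothing of what was bound in these cells.

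Most of these transcripts lay at a higher level relative to all counts in granulosa cells than in oocytes. RNA amounts per cell are not given, so these are not differences in transcripts per cell. The test and the levels compared between cell types were scaled by TMM factors. These were 1.24 to 1.41 for granulosa sums and 0.697 to 0.836 for oocyte sums. Differences relative to all counts therefore lie higher than the log2 values given, and the smaller negative values need not hold on that scale. The 77 members together took 0.394 to 0.821% of the counts of a granulosa pool and 0.131 to 0.271% of those of an oocyte, so the ranges did not overlap. Compared over 6 strata of age, label and treatment, 56 members were higher and 12 lower in granulosa cells (edgeR quasi-likelihood test on counts summed per stratum, Benjamini-Hochberg adjusted p under 0.05 over 24670 genes), and 9 did not pass. Over all genes 87.2% were called, 44.4% higher and 42.8% lower, so most genes differed and an even split is the background here. The members' median log2 difference was 1.96, against 0.13 over all genes tested. For comparison, the cytosolic ribosomal protein genes had a median of 5.39 and the nuclear complex I subunit genes of 3.79.

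**Figure D1:**
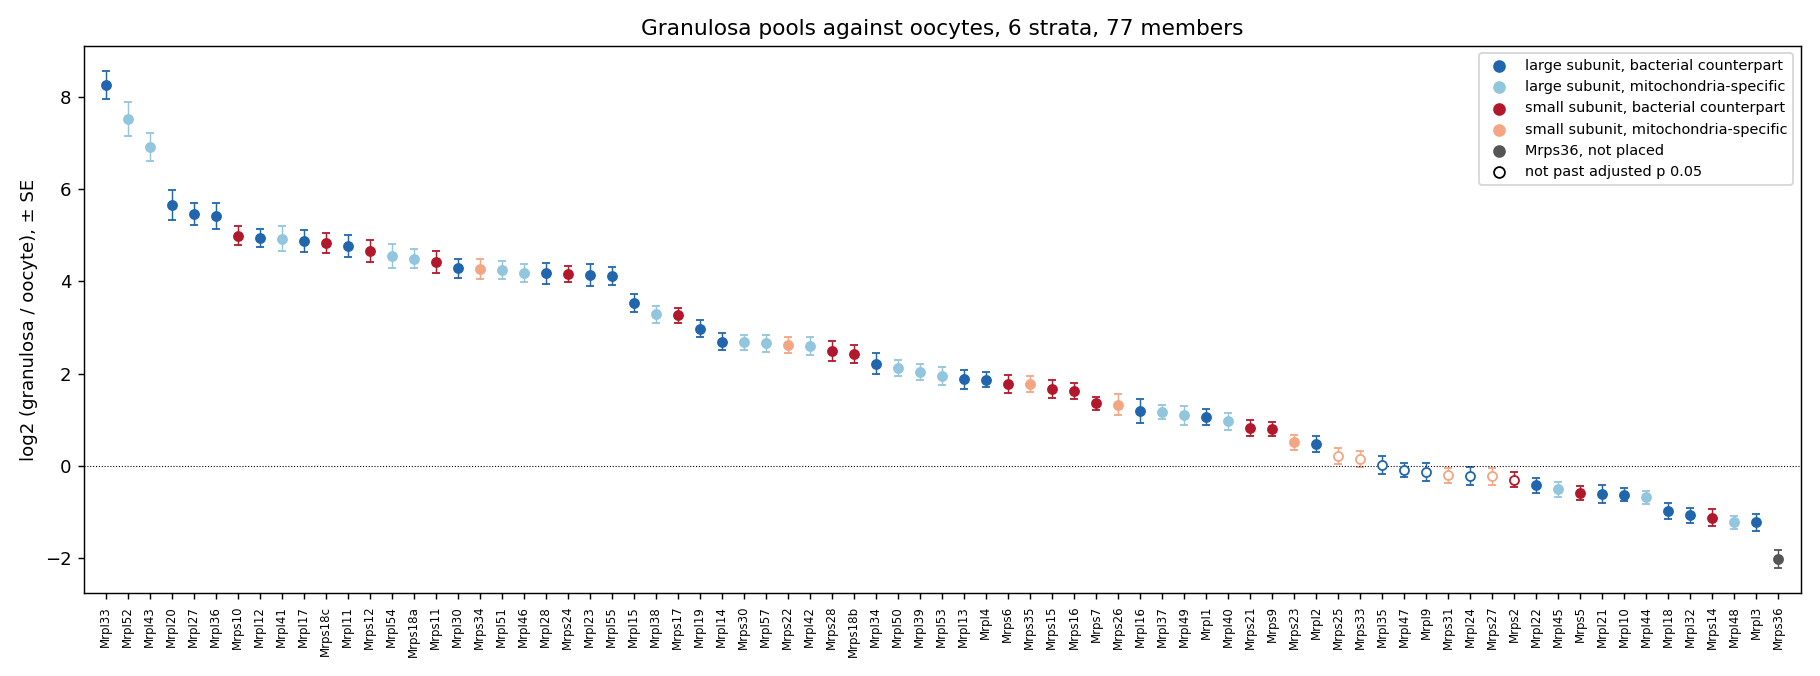
Log2 difference between granulosa pools and oocytes for each of the 77 members, ordered from highest to lowest (vertical axis, log2 of granulosa over oocyte; bars, SE; colours, subunit class; open points, not past adjusted p 0.05). The points run from 8.26 for Mrpl33 to −2.02 for Mrps36, and 56 of 77 pass above 0.

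Mrpl33, a small protein of the large subunit with a bacterial counterpart, differed most. Its stratum sums, scaled by TMM factors, were 205, 192, 219, 135, 94.4 and 82.6 CPM in granulosa cells (old knockout-labelled resveratrol and control, old wild-type resveratrol and control, young knockout-labelled and wild type) and 0.309, 0.559, 0.433, 0.571, 0.521 and 0.428 CPM in oocytes of the same strata (log2 8.26, SE 0.30, adjusted p = 2.38e-10). Every granulosa sum lay far above every oocyte sum. Its exons overlap those of the gene model Gm43809 on the same strand, so reads of the 2 may be mixed. Mrpl52, specific to mitochondria, had 171, 152, 161, 85.9, 59 and 62.2 CPM in granulosa cells and 0.482, 0.719, 0.788, 0.44, 1.15 and 0.196 CPM in oocytes in the same order (log2 7.52, SE 0.37, adjusted p = 1.6e-09). Its sums did not overlap between the cell types. In single oocytes 121 of 171 had a count of Mrpl33 and 124 a count of Mrpl52. Mrpl43, whose exons overlap the gene of the mitochondrial helicase Twinkle on the opposite strand, averaged 67.6 ± 19.8 CPM in granulosa and 0.549 ± 0.19 CPM in oocyte sums (SD, n = 6 strata each; log2 6.92, SE 0.30, adjusted p = 6.72e-10). Mrpl20, Mrpl27 and Mrpl36, all of the large subunit with bacterial counterparts, had log2 differences of 5.66, 5.47 and 5.41 with SE of 0.32, 0.23 and 0.28. Mrpl27 and Mrpl36 overlap genes on the opposite strand (Eme1 and the complex I subunit gene Ndufs6).

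Mrps36 stood at the other end. Its sums were 56.1, 52.6, 49.3, 35.1, 23.7 and 24.5 CPM in granulosa cells and 156, 177, 145, 192, 158 and 111 CPM in oocytes (log2 −2.02, SE 0.20, adjusted p = 9.13e-07), with no overlap. It was also the highest member per length in oocytes, and related pseudogenes took few counts beside it, Mrps36-ps1 having 859 over all oocytes. The members of the mitochondrial ribosome that were lower in granulosa cells differed less. Mrpl3, Mrpl48, Mrps14, Mrpl32 and Mrpl18 had log2 differences of −1.23, −1.23, −1.12, −1.07 and −0.98, with SE of 0.18, 0.14, 0.18, 0.16 and 0.17 and adjusted p-values of 3.84e-05, 5.08e-06, 8.37e-05, 5.7e-05 and 0.000195 in edgeR. Mrps14, a small-subunit protein with a bacterial counterpart, averaged 81.3 ± 21.8 CPM in granulosa and 177 ± 44 CPM in oocyte sums. Mrpl3 shares exons with gene models on both strands, and Mrpl48 and Mrpl18 with Rab6a and Tcp1 on the opposite strand. Mrpl48 shares a name with the pseudogene Mrpl48-ps, and that pseudogene had 2010 counts in granulosa cells and 3913 in oocytes.

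Besides Mrps36, 6 members are reported in every comparison, and all 6 were higher in granulosa cells. Mrpl12, a stalk protein of the large subunit, had a log2 difference of 4.94 (SE 0.19), Mrps12, a decoding-centre protein of the small subunit, 4.66 (SE 0.23), and Mrps30 2.68 (SE 0.16). The 3 paralogs related to one bacterial protein were higher by 4.49 (Mrps18a, SE 0.21), 2.43 (Mrps18b, SE 0.20) and 4.84 (Mrps18c, SE 0.22). Of these paralogs, Mrps18a was classed as specific to mitochondria and Mrps18b and Mrps18c as having a bacterial counterpart. Counts by class depend on such placements. The 9 members that did not pass were Mrps2, Mrps25, Mrps27, Mrps31, Mrps33, Mrpl9, Mrpl24, Mrpl35 and Mrpl47, with differences of −0.30 to 0.21. By class, 20 of 30 large-subunit proteins with a bacterial counterpart were called higher and 6 lower, 17 and 3 of the 20 specific to mitochondria, 14 and 2 of the 17 small-subunit proteins with a counterpart, and 5 and 0 of the 9 specific to mitochondria. Mrps36 was the remaining call.

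The largest differences were among members with short transcripts. The 26 members with transcripts of 418 to 995 bases had a median log2 difference of 4.15, with 24 called higher and 2 lower. The 25 members of 1018 to 1708 bases had a median of 1.17 and the 26 of 1764 to 7300 bases a median of 1.21. Spearman's rho between length and difference was −0.42 across the 77 members, which share their libraries. Over 15271 protein-coding genes tested it was −0.18, and genes in the same 3 length ranges had medians of 2.59 (n = 1026), 1.39 (n = 2331) and −0.30 (n = 10672). The part of transcript length in the members' differences was not tested. Many members called below between granulosa groups also have short transcripts. Those called with resveratrol in old wild-type pools all have 418 to 846 bases. With age in knockout-labelled pools all but Mrpl16, Mrpl40 and Mrps14 had 418 to 995 bases. With the label in old controls all but Mrpl16 did. With age in wild-type pools Mrps18c did, and Mrpl24 and Mrpl40 did not. The part of length in these calls was not tested either.

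The 2 cell types also ranked the members differently. Per kilobase of transcript, the members' median level was 49.3 CPM per kb in granulosa cells and 8.02 in oocytes, and the highest level was 92.2 times the lowest in granulosa cells and 569 times in oocytes. In granulosa cells the 5 highest were Mrpl33 at 323 ± 123, Mrpl52 at 275 ± 123, Mrps21 at 165 ± 67.9, Mrpl30 at 144 ± 49.9 and Mrpl34 at 129 ± 49.5 CPM per kb (SD over 6 strata), and the spread over strata makes neighbours in this order overlap. The 5 lowest were Mrps35, Mrps26, Mrps25, Mrpl19 and Mrps5, at 9.09 ± 1.76, 7.33 ± 1.57, 6.36 ± 1.77, 5.88 ± 0.935 and 3.51 ± 0.402 CPM per kb. Their annotated transcripts are 4162 to 6073 bases long, and the order per kb in both cell types depends on such annotated lengths. In oocytes the 5 highest were Mrps36 at 223 ± 40.1, Mrpl18 at 113 ± 6.29, Mrpl22 at 94.9 ± 25.4, Mrps21 at 88.9 ± 22.9 and Mrpl24 at 76.1 ± 8.41 CPM per kb. The 5 lowest were Mrpl33, Mrpl19, Mrpl11, Mrpl17 and Mrpl43, at 0.984 ± 0.209, 0.75 ± 0.144, 0.518 ± 0.08, 0.479 ± 0.0702 and 0.393 ± 0.136 CPM per kb. Mrps21 was among the highest and Mrpl19 among the lowest in both. Across the 77 members Spearman's rho between the 2 cell types was 0.04. All 77 members had a count in every granulosa library, and 61 had one in every oocyte.

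Within granulosa cells, the members' share of counts lay at different levels by age, label and treatment. It was 0.821, 0.738 and 0.716% in the old knockout-labelled resveratrol pools, 0.699, 0.671 and 0.691% in old knockout-labelled controls, 0.809, 0.706 and 0.71% in old wild-type resveratrol pools and 0.574, 0.596 and 0.668% in old wild-type controls. Young pools had 0.56, 0.593 and 0.446% (knockout-labelled) and 0.436, 0.455 and 0.394% (wild type). The young wild-type pools lay lowest, overlapped by 1 young knockout-labelled pool, and among old pools the wild-type controls lay below the other 9. Other transcripts differed between the same groups. Cytosolic ribosomal protein genes took 6.95, 5.64 and 5.79% in old wild-type resveratrol pools and 4.54, 4.64 and 5.1% in old wild-type controls. Nuclear complex I subunit genes took 0.666 to 0.778% and 0.503 to 0.598% in the same order. The 17 macrophage and leukocyte markers took 0.142 to 0.183% in old knockout-labelled controls, 0.0421 to 0.0947% in old knockout-labelled resveratrol pools, 0.0245 to 0.0402% in old wild-type resveratrol pools and 0.0131 to 0.0184% in old wild-type controls. In young pools these markers took 0.00443 to 0.0970% with the knockout label and 0.00797 to 0.0106% in wild type, where 9 of the 17, Ptprc and Adgre1 among them, were at 0. Their part in the members' levels was not tested. In such pools fewer cells of a type and less RNA per cell cannot be told apart.

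**Figure D2:**
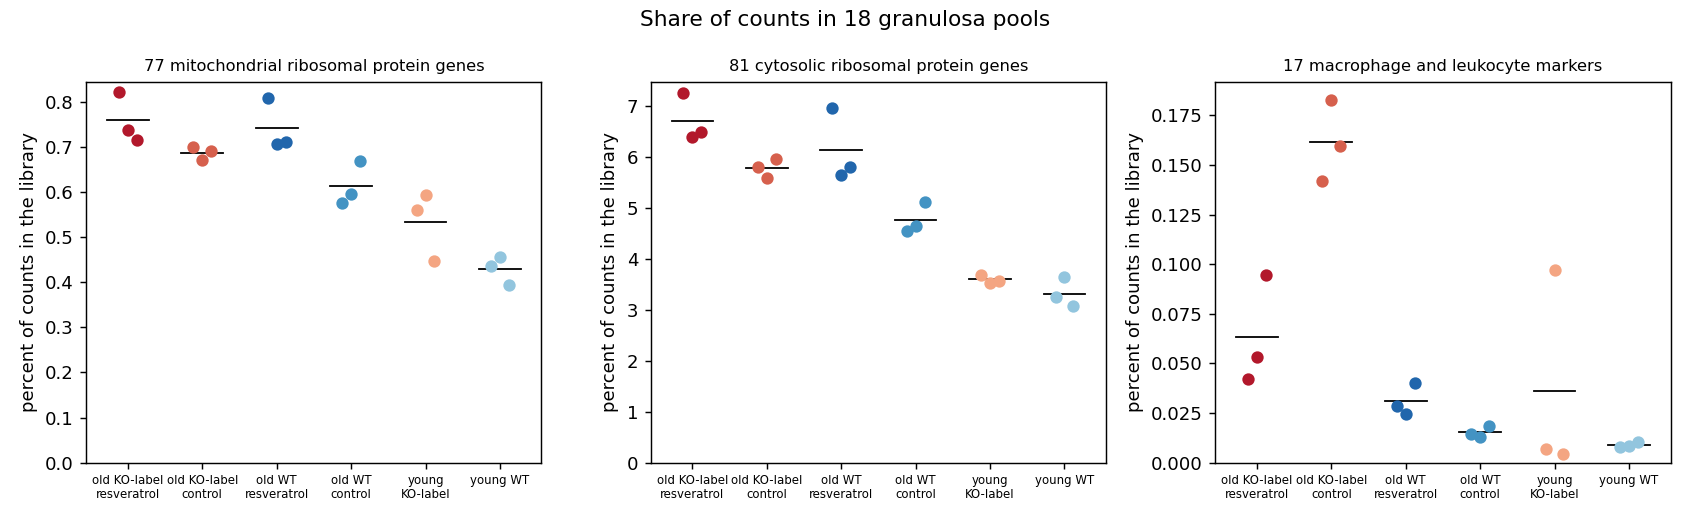
Share of each granulosa library's counts (vertical axes, percent of counts, from 0) taken by the 77 members, by 81 cytosolic ribosomal protein genes and by 17 macrophage and leukocyte markers, in 6 groups of 3 pools (points; line, mean). The old wild-type controls, at 0.574 to 0.668% for the members, lie below the other old groups at 0.671 to 0.821%.

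The first granulosa comparison asked what resveratrol changed in old wild-type mice. Of the 77 members 5 rose (edgeR, adjusted p under 0.05 over 17558 genes) and none fell, against 1.62% of all genes called, 1.17% higher and 0.456% lower. The members' median log2 fold change was 0.50, against 0.01 over all genes tested, and 74 of 77 were above 0. In 61 members all 3 resveratrol pools lay above all 3 controls, and in 0 all lay below, against 17.6% and 13% of all genes tested.

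Mrpl41, a large-subunit protein specific to mitochondria, had 96.1, 78.5 and 79.7 CPM (scaled by TMM factors, as are all granulosa levels here) in resveratrol pools and 46.3, 43.3 and 49.1 CPM in controls (log2 0.88, SE 0.18, adjusted p = 0.0238). Mrpl20 had 155, 139 and 143 CPM in resveratrol pools and 67.9, 77.3 and 92.9 CPM in controls (log2 0.88, SE 0.18, adjusted p = 0.0238). For both genes every resveratrol pool lay above every control. Mrpl52 had 244, 186 and 204 CPM in resveratrol pools and 102, 113 and 113 CPM in controls (log2 0.95, SE 0.23, adjusted p = 0.043). Mrps28 had 113, 98.8 and 90.03 CPM and 55, 55.5 and 67.3 CPM in the same order (log2 0.76, SE 0.20, adjusted p = 0.0478). Mrps6, which shares exons with the transporter gene Slc5a3 on the same strand, had 108, 65.8 and 69.4 CPM and 49.1, 46 and 41.8 CPM (log2 0.83, SE 0.20, adjusted p = 0.0421). None of these 3 overlapped between treatments. Of the always-reported members, Mrps18b, Mrps18a, Mrps36, Mrps18c, Mrps12 and Mrpl12 had log2 values of 0.60, 0.52, 0.51, 0.48, 0.48 and 0.39 and did not pass (adjusted p-values of 0.126 to 0.379 in edgeR), and Mrps30 had 0.01 (adjusted p = 0.989 in edgeR). The count depended on the libraries fitted: it was 1 without control replicate 3, 0 without any other single old wild-type pool, 17 without the 5 pools under 1000000 counts and 37 with only these 6 pools. The share of all genes called in these fits is not given here, so the counts cannot be set against it.

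In old knockout-labelled pools, with resveratrol against control, 0 members passed, 1 had an unadjusted p under 0.05 and DESeq2 called 0, and 0.0285% of all genes were called, 0.0114% higher and 0.0171% lower. The median was 0.12, with 67 of 77 above 0. Mrpl20 had 169, 148 and 143 CPM in resveratrol pools and 160.4, 145 and 138 CPM in controls (log2 0.05), and Mrpl41 had 103, 82.8 and 80.8 CPM and 81.7, 80.1 and 71.8 CPM (log2 0.19), with overlapping groups. The lowest p-values were those of Mrpl35, Mrpl18 and Mrpl34, with log2 values of 0.39, 0.32 and 0.31 (adjusted p = 1 in edgeR for each). In 9 members all resveratrol pools lay above all controls and in 0 below, against 4.98% and 5.31% of all genes tested. Of 16 leukocyte markers tested for resveratrol, 15 had log2 values below 0 in knockout-labelled pools, and 13 had values above 0 in wild-type pools, where 6 were called higher. The test of the difference between the labels called 0 members (0.159% of all genes, 0.0114% higher and 0.148% lower; 10 members at an unadjusted p under 0.05, DESeq2 0). Its log2 values were below 0 in 73 of 77 members with a median of −0.35, against −0.03 over all genes. The lowest p-values were those of Mrpl20 (log2 −0.82, SE 0.26, adjusted p = 0.322), Mrpl16 (log2 −0.87, SE 0.28, adjusted p = 0.362) and Mrpl41 (log2 −0.68, SE 0.25, adjusted p = 0.447).

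**Figure D3:**
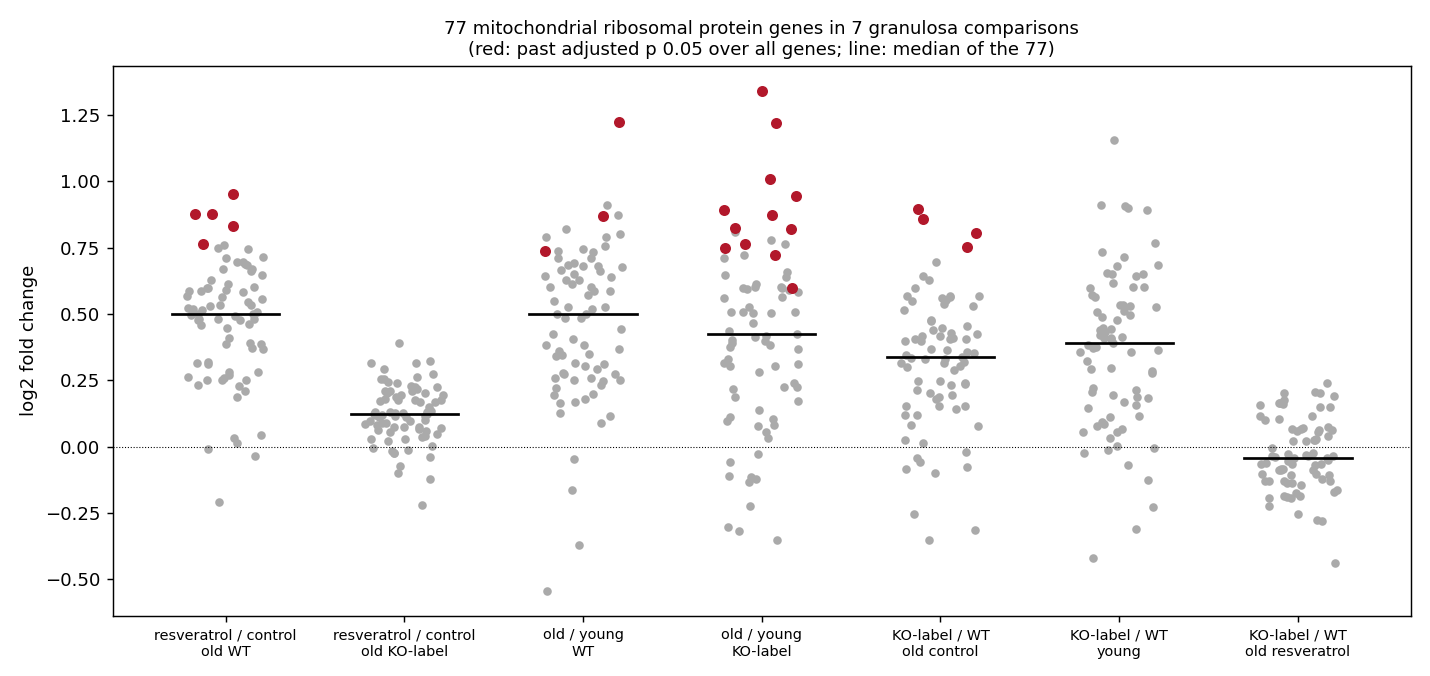
Log2 fold changes of the 77 members in 7 granulosa comparisons (points; vertical axis, log2; red, past adjusted p 0.05 over all genes tested; line, median of the 77). Medians run from 0.50 in both wild-type comparisons to −0.04 for knockout label against wild type in old resveratrol pools, and 12 members pass in the old against young comparison of knockout-labelled pools.

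Age was compared within each label in control pools. Young knockout-labelled replicates 1 and 3 held 749172 and 722075 counts, against 12121306 to 20537935 in old knockout-labelled controls. Age and depth cannot be told apart in those shallow pools. In knockout-labelled pools 12 members rose and none fell, against 5.17% of all genes called, 4.09% higher and 1.08% lower. Their median log2 was 0.43, against 0.10 over all genes, with 67 of 77 above 0. In 37 members all 3 old pools lay above all 3 young pools, and in 0 below, against 15.4% and 3.76% of all genes. Mrps36 rose most, with 74.8, 70.9 and 66.3 CPM in old and 24.8, 31.1 and 24.6 CPM in young pools (log2 1.34, SE 0.23, adjusted p = 0.00142). Mrpl33 had 308, 288 and 203 CPM in old and 77.2, 123 and 141 CPM in young pools (log2 1.22, SE 0.22, adjusted p = 0.00257), and Mrpl20 had 160.4, 145 and 138 CPM and 79.9, 81.2 and 56 CPM (log2 1.01, SE 0.19, adjusted p = 0.00344). None of the 3 overlapped between ages.

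The other 9 calls were smaller. Mrpl16 and Mrpl23, with bacterial counterparts, had log2 0.94 (SE 0.23) and 0.76 (SE 0.20), and Mrpl34, Mrpl30 and Mrps14 had 0.82 (SE 0.23), 0.75 (SE 0.21) and 0.87 (SE 0.25). Mrpl42 had 0.89 (SE 0.21), Mrps18c 0.72 (SE 0.20), Mrpl40 0.60 (SE 0.17) and Mrpl52 0.82 (SE 0.24), with adjusted p-values of 0.0166 to 0.0483 over these 9 in edgeR. Of the rest of the always-reported members Mrps12, Mrps18a, Mrps18b, Mrpl12 and Mrps30 had 0.38, 0.22, 0.24, 0.22 and −0.30 and did not pass. Mrps36, Mrpl33 and Mrpl20 were called in every fit that left out 1 of these 6 pools, and the other 9 were not. Without replicate 2 of the young pools, which had 0.0970% leukocyte markers against 0.00443 to 0.00681% in the others, 12 members were called, 7 of them among the 12 above. The count was 14 without young replicate 1, 8 of them among those 12, 3 without old replicate 1, old replicate 2 or young replicate 3, 8 without old replicate 3, 2 when all libraries were thinned to the shallowest and 0 with only these 6 pools.

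In wild-type pools 3 members rose with age and none fell, against 1.53% of all genes called, 0.843% higher and 0.683% lower, with a median of 0.50 against 0.17 over all genes and 73 of 77 above 0. All 3 old pools lay above all 3 young ones in 42 members and below in 1, against 23.8% and 8.01% of all genes. Mrps18c had 58.9, 60.9 and 63 CPM in old and 27.3, 24.3 and 26.5 CPM in young pools (log2 1.22, SE 0.25, adjusted p = 0.0122). Mrpl24 had 104, 97.4 and 112 CPM in old and 71.4, 60.7 and 37.9 CPM in young pools (log2 0.87, SE 0.22, adjusted p = 0.0438), and Mrpl40 106, 105 and 129 CPM and 69.9, 74.9 and 58.7 CPM (log2 0.74, SE 0.19, adjusted p = 0.0473). The ages did not overlap in any of the 3. Markers of other cell types and of granulosa cells also lay at different levels by age. The 11 oocyte markers took 0.000249 to 0.000634% in old wild-type controls and 0.00871 to 0.0250% in young wild-type pools, and 0.000273 to 0.000450% in old knockout-labelled controls and 0.000103 to 0.0129% in young knockout-labelled pools. Of these 11, 3 and 1 (Zp2, Nlrp5 and Figla, and Figla) were at 0 in the wild-type groups and 5 and 2 in the knockout-labelled ones. The 12 granulosa markers took 0.253 to 0.261% in old wild-type controls and 0.341 to 0.419% in young wild-type pools, and 0.225 to 0.245% and 0.253 to 0.677% in old and young knockout-labelled pools, with none at 0. Their part in the age differences was not tested. Mrps18c shares exons with the gene model Gm43511 on the same strand and Mrpl24 with Rrnad1 on the opposite strand. Mrps12, Mrps18b, Mrps36, Mrps30, Mrpl12 and Mrps18a had 0.64, 0.60, 0.48, 0.37, 0.31 and 0.28 and did not pass. Every young wild-type pool was shallow, so age and depth cannot be told apart here, and the count was 1 without old replicate 1 or 3 and 0 without any other single pool. Mrps18c and Mrpl40 were called in both age comparisons. The difference of the age effects between labels called 0 members (0.137% of all genes, 0.0342% higher and 0.103% lower; 5 members at an unadjusted p under 0.05, DESeq2 0), the lowest p-values being those of Mrpl20 (log2 0.84, SE 0.28, adjusted p = 0.439), Mrps2 (log2 −0.85, SE 0.29, adjusted p = 0.479) and Mrpl45 (log2 −0.66, SE 0.26, adjusted p = 0.534).

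**Figure D4:**
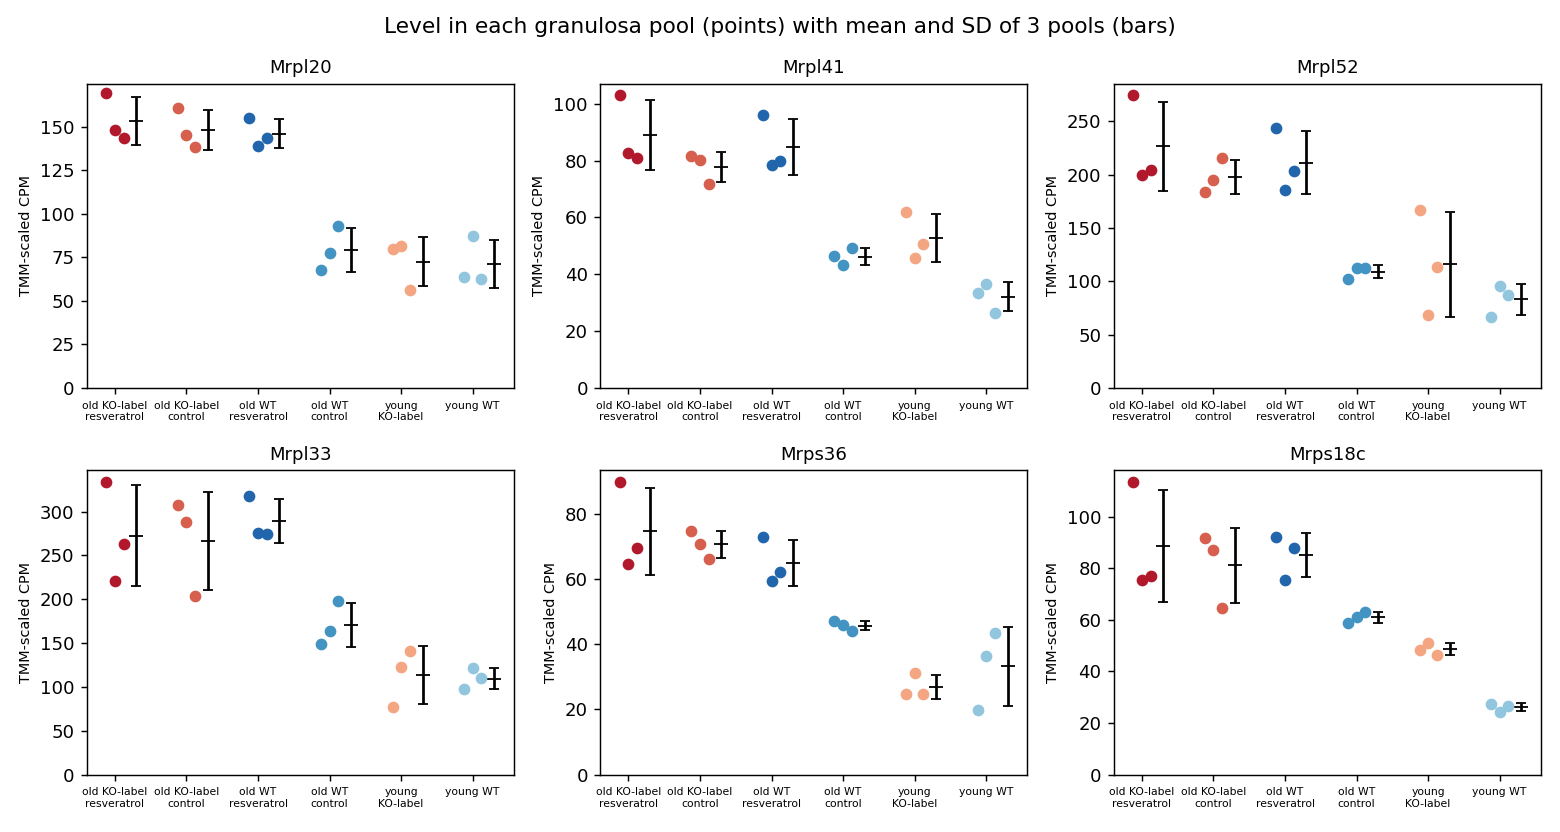
Levels of 6 members in each of 18 granulosa pools (points; vertical axes, TMM-scaled CPM, from 0; bars, mean and SD of 3 pools). Mrpl20, Mrpl41 and Mrpl52 lie lower in old wild-type controls than in the other 3 old groups, and Mrps18c lies at 58.9 to 63.0 CPM in old wild-type controls and at 24.3 to 27.3 CPM in young wild-type pools.

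The genotype label was compared at each age and treatment. In old controls 4 members were higher with the knockout label and none lower, against 3.86% of all genes called, 2.83% higher and 1.03% lower, with a median of 0.34 against 0.06. All 3 knockout-labelled pools lay above all 3 wild-type pools in 39 members and below in 2, against 16.7% and 11.1% of all genes. Mrpl20 had 160.4, 145 and 138 CPM in knockout-labelled and 67.9, 77.3 and 92.9 CPM in wild-type pools (log2 0.90, SE 0.18, adjusted p = 0.00654), and Mrpl41 had 81.7, 80.1 and 71.8 CPM and 46.3, 43.3 and 49.1 CPM (log2 0.75, SE 0.18, adjusted p = 0.0184). Mrpl16 had 33.5, 32.3 and 31.2 CPM in knockout-labelled and 16.6, 18.2 and 20.6 CPM in wild-type pools (log2 0.80, SE 0.20, adjusted p = 0.0255), and Mrpl52 had 184, 195 and 215 CPM and 102, 113 and 113 CPM (log2 0.86, SE 0.23, adjusted p = 0.0361). Mrps36 had 0.63 (adjusted p = 0.08 in edgeR), and the other always-reported members had −0.10 to 0.41. The 3 wild-type pools are the same controls as in the resveratrol comparison above, where Mrpl20, Mrpl41 and Mrpl52 were called too. Leukocyte markers were higher in these knockout-labelled pools in 14 of the 16 tested. The count of members was 0 without old wild-type replicate 1 or 2 or knockout-labelled replicate 2, 1 without wild-type replicate 3 or knockout-labelled replicate 1, and 4 without knockout-labelled replicate 3.

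In young pools 0 members were called (20 at an unadjusted p under 0.05; DESeq2 1; 0.114% of all genes, 0.103% higher and 0.0114% lower), with a median of 0.39 against 0.12. The knockout-labelled pools lay above in 16 members and below in 1, against 5.47% and 3.58% of all genes. Mrpl46, Mrpl11 and Mrpl21 had the lowest p-values, with log2 1.16, 0.90 and 0.91 and adjusted p-values of 0.0782, 0.177 and 0.19 in edgeR. Mrps18c had 48.2, 51.2 and 46.5 CPM in knockout-labelled and 27.3, 24.3 and 26.5 CPM in wild-type pools (log2 0.91, adjusted p = 0.202 in edgeR), with no overlap. The count was 2 without young knockout-labelled replicate 3. In old resveratrol pools 0 were called (1 at an unadjusted p under 0.05; DESeq2 0; 1.07% of all genes, 0.638% higher and 0.427% lower), with a median of −0.04 against 0.03, and Mrps6, Mrpl55 and Mrps27 had the lowest p-values, with log2 −0.44, −0.28 and −0.25. There all knockout-labelled pools lay above all wild-type pools in 0 members and below in 1, against 10.5% and 8.65% of all genes.

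Other genes of mitochondrial translation were counted in the same comparisons, where 0.0285 to 5.17% of all genes were called, so that 0 or 1 call in lists this short is near the background. Of 6 mitochondrial ribosome proteins with other names, 1 rose with age in knockout-labelled pools, Chchd1 (log2 0.95, SE 0.24, adjusted p = 0.0199), and 0 passed in the other granulosa comparisons. With resveratrol in old wild-type pools Chchd1 had log2 0.71 (adjusted p = 0.0916 in edgeR). Of 12 genes of mitochondrial transcription and the genome, 1 rose with age under each label, Slirp, which encodes a protein that stabilises mitochondrial messenger RNA (log2 0.85 with the knockout label and 0.97 in wild type, SE 0.18 and 0.19). None of the 25 assembly factors, 13 translation factors and 17 aminoacyl-tRNA synthetases passed in any comparison between granulosa groups. With resveratrol in old wild-type pools their medians were 0.07, 0.20 and −0.19, beside 0.50 for the members. The higher level was not particular to the members, since shares of cytosolic ribosomal protein and complex I genes were also higher in these pools. The assembly factor gene Mpv17l2 had the lowest p among them (log2 0.88, adjusted p = 0.0684 in edgeR). Between cell types, where 44.4% of all genes were called higher and 42.8% lower in granulosa cells, 14 of 25 assembly factors were higher and 9 lower, 7 and 4 of 13 translation factors, and 12 and 1 of 17 synthetases. Their median log2 differences were 0.58, 0.46 and 1.32, against 0.13 over all genes. Rbfa, an assembly factor of the small subunit, had log2 5.79, and Gfm1, a translation elongation factor, had −2.62.

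In oocytes of the mixed background no member passed for age, genotype or treatment in the 10 sums per group, but this count depended on how oocytes were summed. In 26 sums formed by the first number of the column name, whose meaning is not given, a choice made after seeing the data, 8 members were called at 10 against 2 months, 1 at 6 against 2 months, 14 at 10 against 6 months and 2 for knockout against wild type. Of all genes 12.4%, 3.52%, 15.9% and 8.44% were called in these fits, and 8, 1, 14 and 2 of 77 members are shares near or below these. Resveratrol and its interaction with genotype called 0 members and 0 genes in either way of summing. The members' share of counts had medians of 0.192% in knockout and 0.151% in wild type at 2 months, with ranges of 0.165 to 0.271% over 15 oocytes and 0.141 to 0.166% over 18. At 6 months the medians were 0.178% (knockout resveratrol), 0.175% (knockout control), 0.177% (wild-type resveratrol) and 0.171% (wild-type control), and at 10 months 0.181%, 0.178%, 0.188% and 0.189% in the same order. Young wild-type oocytes, whose genotype tag says knockout against their title, thus had the lowest median of the 10 groups. Cytosolic ribosomal protein genes had medians of 0.151% in knockout and 0.0953% in wild type at 2 months, the wild-type median again being the lowest of the 10 groups.

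**Figure D5:**
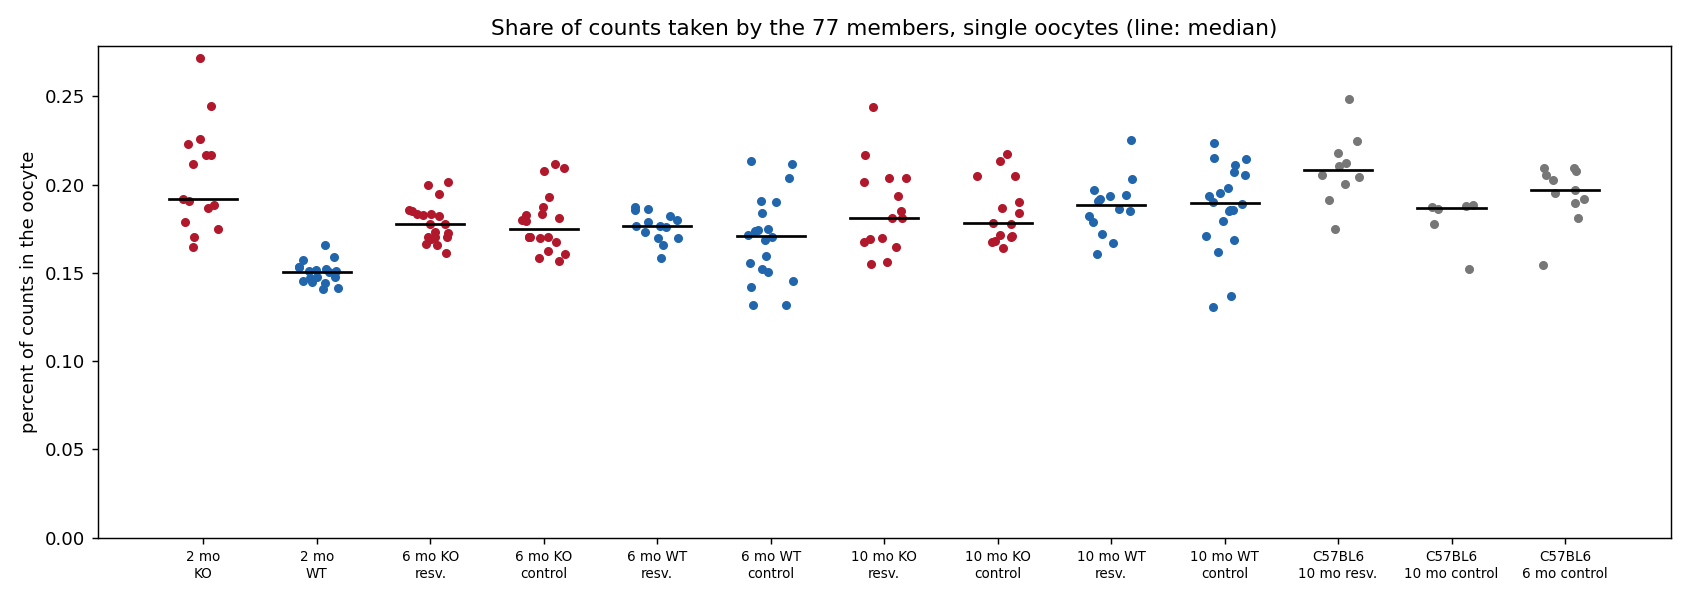
Share of each oocyte's counts taken by the 77 members (vertical axis, percent of counts, from 0; points, single oocytes; line, median), for 10 groups of the mixed background (red, knockout; blue, wild type) and 3 groups of C57BL6 (grey). The young wild-type oocytes lie at 0.141 to 0.166%, and medians of all other groups lie at 0.171 to 0.208%.

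Knockout against wild type, over the 10 sums, gave a median log2 of 0.14 for the members against 0.02 over all genes, with 62 of 77 above 0 and 0 called (0.139% of all genes, 0.0385% higher and 0.101% lower; 5 members at an unadjusted p under 0.05; DESeq2 0). The median was 0.01 when either the young knockout or the young wild-type sum was left out. Mrps18c had 1.44, 1.71, 2.09, 1.86 and 1.65 CPM in knockout sums (2 months, then resveratrol and control at 6 and at 10 months) and 0.641, 1.58, 1.117, 0.969 and 1.24 CPM in wild-type sums (log2 0.69, SE 0.21, adjusted p = 0.223). Mrps12 had 2.82, 2.28, 2.7, 1.75 and 2.75 CPM in knockout and 1.27, 1.35, 1.49, 2.06 and 1.92 CPM in wild-type sums (log2 0.62, SE 0.22, adjusted p = 0.28), and Mrpl27 had log2 0.55 (adjusted p = 0.369 in edgeR). Mrps18a, Mrps30, Mrpl12 and Mrps36 had 0.31, 0.28, 0.25 and 0.03, and Mrps18b lay within 0.01 of 0.

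Age gave 0 calls at 10 against 2 months (4 members at an unadjusted p under 0.05, 1 called by DESeq2), at 6 against 2 months (4; DESeq2 0) and at 10 against 6 months (12; DESeq2 2), where 0.00481%, 0% and 0.00481% of all genes were called. The medians were 0.06, 0.03 and 0.02. At 10 against 2 months Mrpl3 had the lowest p (log2 −0.76, SE 0.20, adjusted p = 0.201), with sums of 70.7, 63.2, 61.4 and 66.3 CPM at 10 months (knockout resveratrol, knockout control, wild-type resveratrol, wild-type control) and 80.0 and 130.5 CPM at 2 months (knockout, wild type). Mrpl9 and Mrps14 followed with log2 −0.56 and 0.61. At 10 against 6 months Mrps21, Mrpl22 and Mrps14 had 0.83, 0.76 and 0.48, with adjusted p-values of 0.115, 0.144 and 0.205 in edgeR. At 6 against 2 months Mrpl39, Mrpl48 and Mrpl1 had 0.77, −0.48 and −0.61. The median at 10 against 2 months was −0.22 without the young wild-type sum and 0.34 without the young knockout sum, so the direction of the members as a list rests on these sums. Resveratrol gave 0 calls of members and of all genes (0 members at an unadjusted p under 0.05; DESeq2 0), with a median of −0.02 and log2 values of −0.30, −0.32 and −0.26 for Mrpl14, Mrpl19 and Mrpl39, those with the lowest p. Its interaction with genotype also gave 0 (1 member at an unadjusted p under 0.05; DESeq2 0), with Mrpl30, Mrpl46 and Mrps25 at −0.85, −0.86 and −0.43.

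In the C57BL6 oocytes each group is 1 sum and no test was made. Resveratrol columns were tied to samples by the last number of their names, and 1 name could also be read as that of the oocyte with disagreeing labels. Ratios of sums carry exact Poisson intervals that cover counting error only, and a ratio past 1.5-fold is counted as past the limit. With resveratrol against control at 10 months, 6 members were past it upwards and 3 downwards, against 13.7% of all genes at 1 CPM or more past it, 7.63% upwards and 6.07% downwards. The 77 members were counted at any level, so the 2 sets are not chosen alike. The members' median log2 ratio was 0.11, with 54 of 77 above 0. Without the oocyte of unsure name, 7 were past it upwards and 1 downwards, with a median of 0.19. Their share of counts was a lowest of 0.175%, a median of 0.208% and a highest of 0.249% in resveratrol oocytes, and 0.152%, 0.187% and 0.188% in controls. Mrps31, a small-subunit protein specific to mitochondria, had the highest ratio among members at 20 CPM or more, with a lowest of 67.8, a median of 80.2 and a highest of 153 CPM in resveratrol oocytes and a lowest of 28.5, a median of 57 and a highest of 69.4 CPM in controls (log2 0.71, 95% interval 0.64 to 0.78). The groups overlapped narrowly. Mrpl22 and Mrpl39 had ratios of log2 0.51 and 0.50, and the lowest ratios among those members were those of Mrpl44, Mrps2 and Mrpl40 at −0.11, −0.03 and −0.02. Of the always-reported members, Mrps18a had log2 0.88, 95% interval 0.51 to 1.28, at 3.63 CPM in the resveratrol and 1.96 CPM in the control sum, Mrpl12 had 0.52 and Mrps36 0.05. Mrps18b, Mrps12 and Mrps18c had 0.35, −0.14 and −0.19, and the interval of Mrps30 included 0.

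Control oocytes of 10 against 6 months had 11 members past 1.5-fold upwards and 9 downwards, again counted at any level. Of all genes at 1 CPM or more 33.3% were past it, 22.4% upwards and 10.9% downwards. The members' median was 0.03, against 0.10 for those genes. With TMM factors of the sums the split was 8 upwards and 12 downwards, with a median of −0.08. Among members at 20 CPM or more Mrps31 was the highest here too, with a lowest of 28.5, a median of 57 and a highest of 69.4 CPM at 10 months and a lowest of 7.8, a median of 17.6 and a highest of 29.9 CPM at 6 months (log2 1.44, 95% interval 1.33 to 1.56), with a narrow overlap. The same control group at 10 months enters both ratios. Mrpl32 and Mrps33 had log2 ratios of 0.48 and 0.41. Mrpl3 had the lowest ratio of those members, with a lowest of 51.8, a median of 75.1 and a highest of 95.9 CPM at 10 months and a lowest of 88.4, a median of 127 and a highest of 248 CPM at 6 months (log2 −0.97, 95% interval −1.04 to −0.91). Mrpl10 had a lowest of 34.6, a median of 45.8 and a highest of 54.2 CPM at 10 months and a lowest of 54.3, a median of 78.6 and a highest of 137 CPM at 6 months (log2 −0.86, 95% interval −0.94 to −0.78), and its groups did not overlap. Mrpl24 had −0.62. Mrps30 had log2 −1.10, 95% interval −1.36 to −0.86, and Mrpl12, Mrps18c, Mrps18b, Mrps36 and Mrps12 had 0.70, 0.54, 0.52, −0.10 and −0.47, and the interval of Mrps18a included 0. In the mixed background, where ages were 10 against 6 months too, Mrpl3 and Mrps31 had log2 −0.36 and −0.21 and neither passed (adjusted p-values of 0.297 and 0.734 in edgeR).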

How the data were processed

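Smart-seq2 libraries, full-length cDNA of polyadenylated RNA amplified from single cells or small pools, were sequenced as paired reads of 150 bases, per the labels' protocols. The authors deposited whole-number read counts per gene symbol, not normalized, for 53619 genes in each table. HISAT2 2.1.0 and featureCounts, DESeq2 and the mouse build mm10 appear in the submitters' processing notes, with no roles. Strand setting and annotation are not given in the sources used here, and 32 of the 77 members share exon bases with another gene in GENCODE vM21 (GRCm38), so reads of such genes may be mixed. No sample column was left unused.

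Counts were tested with edgeR 4.0.16 (R 4.3.3; quasi-likelihood, TMM factors, filterByExpr with a minimum count of 10, Benjamini-Hochberg adjustment over all genes at 0.05). Granulosa pools entered 1 model of 6 groups with 12 residual degrees of freedom. Oocyte counts were summed per group into 10 sums, and fitted with additive terms for treatment, age and genotype (5 residual degrees of freedom, 4 with the interaction), so departures from additivity count as spread. Granulosa and oocyte sums were compared over 6 strata as a block. All 77 members passed each filter on low counts. Ratios of C57BL6 sums had 0.5 counts added. Levels per kb use the median length of a gene's principal coding transcripts. Replicates may be technical, since no animal is named, and p-values then measure only the spread between these samples. Intervals cover counting error only.

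Members, lists, motifs and tests were chosen with earlier results of these data known, and the motif spellings after shares of other spellings were seen. The rule names 7 members in every comparison, those past the threshold (up to 10 by lowest p) or the 3 with the lowest p, the 5 highest and lowest levels, the 6 largest differences between cell types each way and, in C57BL6, the 3 ratios at each end among members at 20 CPM or more. In edgeR on simulated counts of the granulosa resveratrol comparison (16765 genes), 17.4% of 109 genes changed by log2 1 and 96.7% of 91 changed by log2 2 were called. Over the oocyte sums (19966 genes) all 104 and all 96 such genes were called for resveratrol. Those oocyte counts were simulated with less spread than was fitted to the real sums. Their shares therefore do not show what the oocyte comparisons could call. Alternatives were RLE factors, no filter, DESeq2 1.42.0, the replicate number as a block, fewer or thinned libraries, leaving out each library or sum, and, chosen after seeing the data, oocyte sums by the first number of the column name and C57BL6 sums without the oocyte of unsure name.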

Additional observations from a re-analysis of the deposited data

Results flagged for a closer look

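In C57BL6 oocytes, the groups with 4 to 10 libraries, 38 pairs of a value and a group were searched for a single oocyte far from the rest, and 6 had one. The limit flags about 1 in 20 only for independent, normally distributed values. These pairs share oocytes, and some genes were named by their ratios between these groups. The count therefore cannot be compared with chance. The summed level of the members was 1524 CPM in 1 old control oocyte, against 1777 to 1885 CPM in the other 5. Mrpl24 was at 26.8 CPM in 1 old control oocyte, against 40.8 to 48.9 CPM in the others. Among old resveratrol oocytes, Mrpl32 was at 94.8 CPM in 1, against 129.9 to 163.7 CPM in the other 9. Mrpl40 was at 46.2 CPM in 1, against 19.7 to 33.8 CPM, Mrps18a at 8.88 CPM in 1, against 1.33 to 4.17 CPM, and Mrps31 at 153.3 CPM in 1, against 67.8 to 103.9 CPM.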

How the results depend on the processing

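Resveratrol in old wild-type granulosa pools called 5 members, 2 with RLE factors, 3 without the filter, 21 with DESeq2, 2 with the replicate block, 37 with only the groups compared, 17 without libraries under 1000000 counts, 0 on thinned libraries and 0 to 1 leaving out 1 pool. Old against young wild-type pools called 3, and 1 with RLE, 6 without the filter, 7 with only the groups compared and 0 to 1 leaving out 1 pool. Old against young knockout-labelled pools called 12, and 5 with RLE, 0 with only the groups compared, 5 without libraries under 1000000 counts, 2 on thinned libraries and 3 to 14 leaving out 1 pool. Knockout label against wild type in old controls called 4, and 2 without the filter, 8 when the shallow pools were dropped, 7 with only the groups compared, 0 on thinned libraries and 0 to 4 leaving out 1 pool. In young pools it called 0, and 1 without the filter, 1 with DESeq2 and 0 to 2 leaving out 1 pool. Every call in these granulosa settings was higher in the group named first. Shares of all genes called in these granulosa settings are not given here, so the counts show only how calling depended on the fit. Resveratrol in knockout-labelled pools, the label in old resveratrol pools and both interactions called 0 in each setting run.

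Granulosa replicate numbers did not pair the pools (same-number deviations correlated at a median of −0.01 over 45 pairs, from −0.16 to 0.15), and the block took the calls to 2 in both wild-type comparisons, 10 for age in knockout-labelled pools and 4 for the label in old controls. Oocyte and C57BL6 fits used sums that pool libraries and had no such block, and the cell types were paired by stratum in the test itself. RLE factors moved the median of all genes by −0.11 and −0.10 in the age comparisons of wild-type and knockout-labelled pools and by −0.16 between cell types.

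In oocytes DESeq2 called 1 member at 10 against 2 months and 2 at 10 against 6 months, where no filter gave 1. Sums by the first number of the column name, 26 sums of 170 oocytes (the meaning of the number is not given), called 8 at 10 against 2 months, 1 at 6 against 2, 14 at 10 against 6 and 2 for knockout. Leaving out 1 sum gave 0 in every oocyte comparison. Granulosa against oocytes called 66 to 68 members leaving out 1 stratum, and 66 of the 68 were called in every such fit. In C57BL6 at 10 against 6 months, TMM factors of the sums turned the split of 11 higher and 9 lower into 8 and 12. The causes were not tested.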

Other observations

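In the C57BL6 oocyte whose title says resveratrol and whose treatment tag says control, the members took 0.199% of counts and the cytosolic ribosomal protein genes 0.187%.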
